A study of Homo sapiens with 4 samples.

Results

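The annexin family was represented by 10 rows of a gene count table with 26364 gene symbols, namely ANXA1, ANXA2, ANXA3, ANXA4, ANXA5, ANXA6, ANXA7, ANXA10, ANXA11 and ANXA13. The family was chosen by a measured value, the count of ANXA10, which was 0 in both libraries labelled knockout, and its other rows were then taken by gene symbol. Counts were found for 9 of the 10 genes. ANXA13, known as an annexin of the intestinal epithelium, had 0 counts in all 4 libraries.

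The libraries held polysomal RNA of the human colorectal carcinoma line HCT116. A polysome is an mRNA with several ribosomes on it, and polysomes of different size can be parted on a density gradient. The 4 groups were Dicer1 knockout heavy, wild type heavy, Dicer1 knockout light and wild type light polysomes, with 1 library each. Heavy polysomes had 10 or more ribosomes and light polysomes had 9 or fewer. DICER1 is the enzyme that cuts microRNA precursors, and the study asked how its loss changes the distribution of mRNAs between these fractions. The labels do not say how the gene was altered, or whether the knockout cells are 1 clone.

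Totals ran from 17457116 to 20933675 counts. DICER1 mRNA was not lower in the libraries labelled knockout, with 925 counts in the heavy and 889 in the light library, against 500 and 547 in wild type. No loss is visible in this gene count (log2 ratios 0.95 and 0.96), and the name "labelled knockout" is used below. Of 10 epithelial marker genes, 8 had at least 50 counts in each library, while CDX1 and LGALS4 had at most 2. Of 17 markers of fibroblasts, endothelium and blood, COL1A1 alone had more than 16 counts in any library (911 in labelled knockout heavy, 468 in wild type heavy, 304 in labelled knockout light and 206 in wild type light polysomes). Ribosomal RNA took 2.61 to 5.97% of the counts and was higher in the labelled knockout in each fraction. Its part in the results below was not tested, but leaving those rows out moved no annexin call.

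Annexins are proteins that bind phospholipid membranes when calcium rises. Their folded core is built from annexin repeats, and a variable stretch at the amino terminus binds partners such as S100 proteins. Members take part in membrane repair, endocytosis, secretion and the control of inflammation. Epithelial cells usually contain several of them at high levels.

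The most abundant annexins were ANXA1, a glucocorticoid-induced protein that dampens inflammation, and ANXA2, which joins actin to membranes as a complex with S100A10. ANXA1 had 37657 counts in labelled knockout heavy and 40584 in wild type heavy polysomes, and 14472 in labelled knockout light and 9081 in wild type light polysomes. ANXA2 had 45893 and 36803 counts in heavy and 16080 and 7965 in light polysomes, labelled knockout before wild type in each pair. Together they made up 64.6% and 64.2% of the counts of the 10 members in heavy polysomes of the labelled knockout and the wild type. In light ones it was 53.7% and 47.0%. Both genes were thus highest in the heavy libraries, and in light polysomes both had more counts in the labelled knockout.

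Levels of different genes were compared per length, as RPKM, counts scaled by TMM library size and by the length of the main transcript. In labelled knockout heavy polysomes ANXA2 stood at rank 17 and ANXA1 at rank 20 of 14415 genes with a count, and in wild type heavy polysomes they stood at ranks 34 and 26 of 14256. ANXA5, whose protein binds exposed phosphatidylserine and serves as a probe of dying cells, followed with 504 RPKM in labelled knockout heavy and 427 RPKM in wild type heavy polysomes. ANXA3 had 392 and 244 RPKM in these libraries. ANXA6, ANXA7, ANXA11 and ANXA4 lay between 48.7 and 97.8 RPKM in the heavy libraries. Among the 10 members ANXA10 was the lowest with counts, at 4.15 RPKM in the heavy and 3.62 RPKM in the light library of the wild type. ANXA9, an annexin that is not among the members, was lower in these libraries, at 3.51 and 2.28 RPKM. The plot of levels by library gives TMM-scaled CPM, which do not correct for length, so its order differs: ANXA11, with a long transcript, had 545 CPM in wild type heavy polysomes and ANXA3 had 349 CPM.

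**Figure D1:**
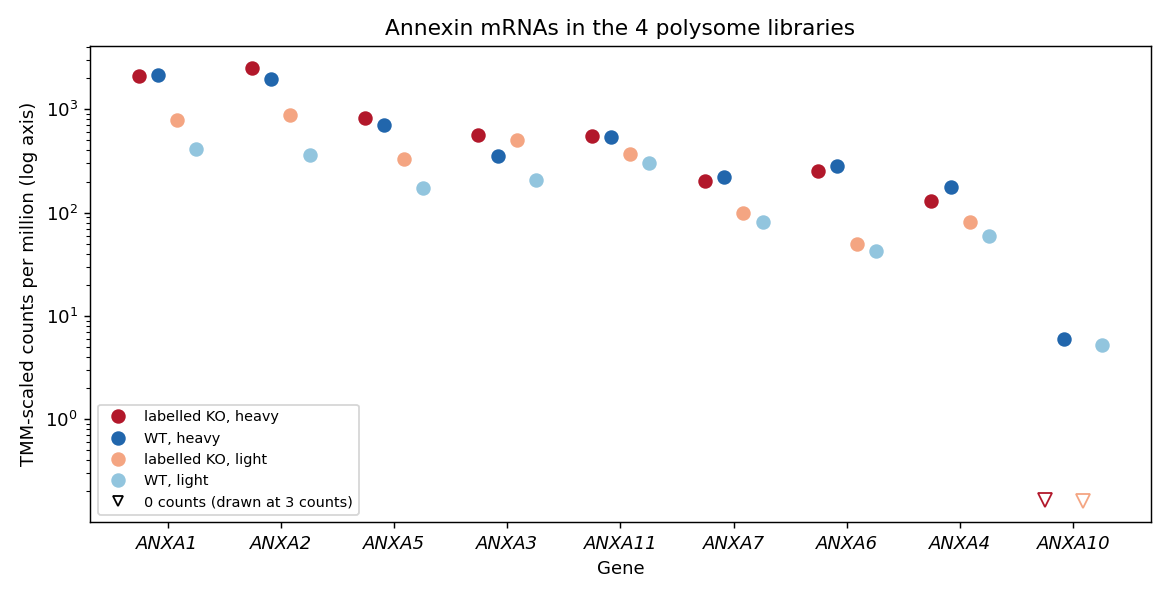
TMM-scaled CPM (log axis) of 9 annexins in the 4 libraries, with 1 library per point. ANXA10 had 5.97 and 5.22 CPM in the wild type libraries and 0 in those labelled knockout, which are drawn as open triangles at 3 counts.

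Reads of ANXA2 may be shared with 3 processed pseudogenes, copies of its mRNA set into other chromosomes. Against the 1017 coding bases of ANXA2, ANXA2P2 on chromosome 9 was identical at 98.4% of aligned bases, ANXA2P1 on chromosome 4 at 93.8% and ANXA2P3 on chromosome 10 at 92.2%. Of all 50-base windows of the coding sequence, 59.4% occurred unchanged in ANXA2P2, 7.33% in ANXA2P1 and 0.723% in ANXA2P3. Coding bases 61 to 90 of ANXA2 are shown because all 3 copies differ from it there, by 1 to 4 bases. The sequences are from GRCh38, with capitals at bases that differ between ANXA2 and a copy. In ANXA2 (chr15:60382400-60382429, minus strand) all such bases are in capitals, and in ANXA2P1 (chr4:153308673-153308702, minus strand), ANXA2P2 (chr9:33624334-33624363, plus strand) and ANXA2P3 (chr10:64825632-64825661, plus strand) those of that copy.
ANXA2: CcaAgtgcatAtgggtcTgtcaaagcctaT
ANXA2P1: ccaagtgcatTtgggtcAgtcaaagcctaC
ANXA2P2: ccaagtgcatatgggtctgtcaaagcctaC
ANXA2P3: TcaGgtgcatatgggtcAgtcaaagcctaC

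The pseudogene rows moved with ANXA2 in every library. ANXA2P2 had 16932 counts in labelled knockout heavy and 12653 in wild type heavy polysomes, and 4991 in labelled knockout light and 2714 in wild type light polysomes. That was 36.9% and 34.4% of the ANXA2 counts in heavy and 31.0% and 34.1% in light polysomes. ANXA2P1 stood at 1.79 to 2.11% and ANXA2P3 at 1.35 to 1.47% of ANXA2. Whether these rows hold transcripts of the copies or reads of ANXA2 was not tested. With all 4 rows summed, the values of ANXA2 given below changed little: the log2 heavy to light ratio was 1.60 in the labelled knockout and 2.43 in the wild type, against 1.53 and 2.43 for the ANXA2 row alone.

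The first comparison asked which annexin mRNAs carry many ribosomes. Of the 9 tested members, 7 were called heavy and 0 light, and 2 were not called, ANXA3 and ANXA10. Over all 13574 genes, 59.3% were called, 30.0% as heavy and 29.3% as light. The median fitted log2 heavy to light ratio was 1.23 for the 9 members and -0.07 for all genes (-0.30 with library totals in place of TMM). The calls rest on edgeR's quasi-likelihood test over both gradients with Benjamini-Hochberg adjustment over all genes. The spread in it comes from the disagreement of the 2 genotypes, with 1 residual degree of freedom per gene. Because edgeR pools this spread over genes, an adjusted p does not measure the disagreement of a single gene.

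ANXA6, whose protein joins a pair of annexin cores in 1 chain, had the highest ratio. Its counts were 4609 in labelled knockout heavy and 5347 in wild type heavy polysomes, against 921 in labelled knockout light and 939 in wild type light polysomes. Both heavy libraries lay far above both light ones, and the fitted log2 ratio was 2.54 (SE 0.30, edgeR adjusted p = 7.95e-15), a 5.80-fold enrichment. ANXA2 followed at 1.98 (SE 0.34, edgeR adjusted p = 7.14e-08) and ANXA1 at 1.89 (SE 0.34, edgeR adjusted p = 2.54e-07).

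ANXA5 had 14936 and 13222 counts in heavy polysomes of the labelled knockout and the wild type, and 6049 and 3799 in light ones. Its fitted log2 ratio was 1.67 (SE 0.32, edgeR adjusted p = 1.46e-06). ANXA7, also known as synexin and linked to membrane fusion in secretion, had 3649 and 4220 counts in heavy and 1835 and 1793 in light polysomes. Here too both heavy libraries exceeded both light ones, with a fitted log2 ratio of 1.23 (SE 0.29, edgeR adjusted p = 7.84e-05). ANXA4, an annexin of epithelia, had 2338 and 3351 counts in heavy and 1480 and 1310 in light polysomes, and stood at 1.13 (SE 0.28, edgeR adjusted p = 0.000223).

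The lowest ratios were those of ANXA11, ANXA3 and ANXA10. ANXA11, a protein with a long low-complexity amino terminus that tethers RNA granules to lysosomes, had 10005 and 10315 counts in heavy and 6862 and 6647 in light polysomes. It was called at 0.71 on the log2 scale (SE 0.31, edgeR adjusted p = 0.0390). This call was lost with library totals in place of TMM (0.48, adjusted p = 0.108), with DESeq2 size factors in the edgeR fit (0.74, adjusted p = 0.0578) and without the gradient as a block (0.70, adjusted p = 0.0809).

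ANXA3 had 10166 and 6611 counts in heavy polysomes of the labelled knockout and the wild type, and 9210 and 4603 in light ones. The light library of the labelled knockout thus held more ANXA3 than the heavy library of the wild type, and the log2 ratio of 0.45 was not called (SE 0.31, edgeR adjusted p = 0.197). The wild type counts of ANXA10 were 113 in the heavy and 115 in the light library. Its fitted ratio of 0.19 (SE 0.43, edgeR adjusted p = 0.712) rests on the wild type gradient alone, and it was -0.11 with library totals.

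The order of the members was nearly the same in both gradients. From highest to lowest it was ANXA6, ANXA2, ANXA1, ANXA5, ANXA7, ANXA4, ANXA11, ANXA3 and ANXA10 in the fit. In the wild type alone ANXA4 (1.57) stood above ANXA7 (1.45), and in the labelled knockout alone below it (0.68 against 1.01). Neighbours in this order were 0.09 to 0.56 apart on the log2 scale, at most 1.22 times a combined standard error that takes the genes as independent, although they share both gradients. By that measure no neighbours were separated. Within each gradient the order of the 8 members with counts in both genotypes was the same apart from ANXA7 and ANXA4.

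**Figure D2:**
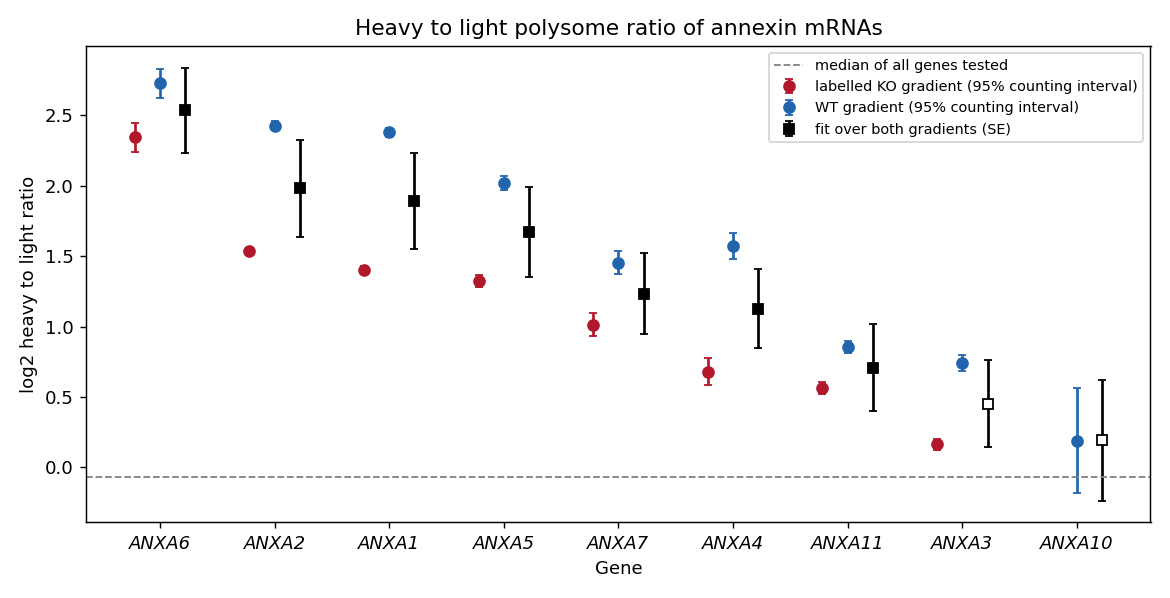
Log2 heavy to light ratio of 8 annexins in the labelled knockout gradient, and of these and ANXA10 in the wild type gradient and in the fit over both; filled squares were called at an edgeR adjusted p under 0.05. All 8 members with counts in both genotypes had a lower ratio in the labelled knockout gradient.

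Coding length, which limits how many ribosomes fit on an mRNA, did not order the annexins by itself. ANXA6 has the longest coding sequence, 2019 nucleotides, and the highest ratio, but ANXA11 with 1515 nucleotides lay below ANXA5 with 960. Among 2838 genes with coding sequences over 500 and up to 1000 nucleotides, the median fitted log2 ratio was -0.51 and the upper quartile 0.05. ANXA5 (960 nucleotides), ANXA4 (963) and ANXA3 (969) lay above that upper quartile. ANXA10 (972) had a ratio of 0.19 from the wild type gradient alone, and its SE of 0.43 spans that quartile. ANXA2 (1017), ANXA1 (1038) and ANXA7 (1398) lay above the upper quartile of 0.78 of the 2856 genes with over 1000 and up to 1500 nucleotides. ANXA6 exceeded the upper quartile of 1.26 of its class of 2034 genes up to 3000 nucleotides. ANXA11 lay between the median of 0.37 and the upper quartile of 1.13 of its class of 1952 genes.

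**Figure D3:**
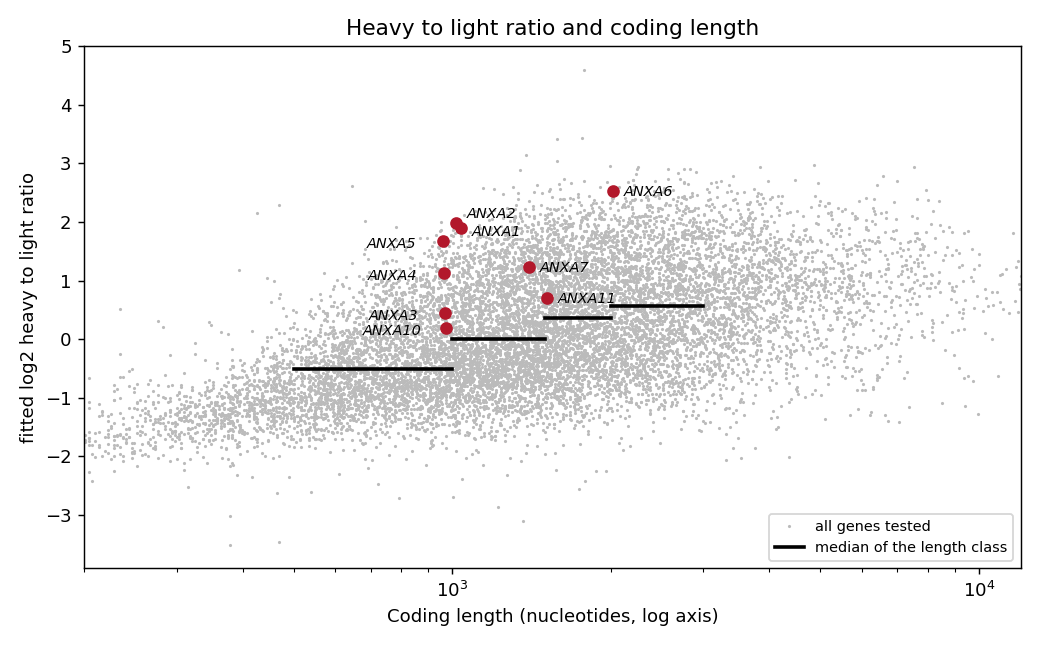
Fitted log2 heavy to light ratio against coding length (log axis) for all genes tested and 9 annexins, with the medians of 4 length classes as bars. ANXA3, ANXA4, ANXA5 and ANXA10 have nearly the same coding length and spread from 0.19 to 1.67.

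The untranslated regions of the annexins were mostly short. Leaders of the main transcripts had 48 bases in ANXA7 to 252 in ANXA11, against a median of 140 over 12514 genes tested. An upstream ATG, a start codon ahead of the coding sequence, was found in ANXA10 and ANXA13, with 1 each, and in 0 of the other 8 members. Of all genes tested, 40.8% had at least 1 in their leader. The 3′ UTR was 286 bases long in ANXA1, 302 in ANXA10 and 332 in ANXA3, and 4964 in ANXA11, against a median of 1307. At the protein level ANXA10 was the member least like the rest, with 35.2 to 43.8% identical residues, while the closest pair was ANXA4 and ANXA5 with 58.1%.

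Several partners of annexins lay in light polysomes. Of 10 tested members of a partner list of 14 genes, 2 were called heavy and 6 light (30.0% and 29.3% over all genes), with a median log2 ratio of -0.96. S100A10, the small subunit that binds ANXA2, had 4731 counts in labelled knockout heavy and 3859 in wild type heavy polysomes, against 11957 in labelled knockout light and 9683 in wild type light polysomes. Its fitted log2 ratio was -1.21 (SE 0.31, edgeR adjusted p = 0.000327), opposite to that of ANXA2. S100A11, which binds ANXA1, stood at -1.16, and S100A6, a partner of ANXA11 and ANXA2, at -1.67. The calcium sensors SRI (-1.10), which binds ANXA7, and PDCD6 (-1.01), which binds ANXA11 and ANXA7, lay in light polysomes as well, as did S100A4 (-0.91). The calls toward heavy polysomes were AHNAK, a giant scaffold that binds the complex of ANXA2 and S100A10 (1.27), and PEF1, a binding partner of PDCD6 (0.83). Coding sequences of the partners called light are short. They have 270 nucleotides in S100A6, 291 in S100A10, 303 in S100A4, 315 in S100A11, 573 in PDCD6 and 594 in SRI. PEF1 has 852 and AHNAK 17670 nucleotides. The part of coding length in these calls was not tested. Of the 4 partners that were not tested, 2 had 0 counts in all libraries.

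Of 19 measured genes of membrane repair, a process in which annexins take part, 10 were called heavy and 2 light, where 30.0% and 29.3% of all genes were (median 0.97). The highest were the calpain CAPN1, a calcium-dependent protease, at a log2 ratio of 2.36, and EHD2, a caveolar ATPase, at 2.03. Those called light were CHMP4C, an ESCRT-III subunit, at -0.95 and CAV1, the coat protein of caveolae, at -0.94. Among the other annexin rows, ANXA9 was called heavy at 0.78 (edgeR adjusted p = 0.020), with 119 counts in labelled knockout heavy and 103 in wild type heavy polysomes, and 63 and 78 in light ones. ANXA2R, a proposed receptor of ANXA2, had 10 to 33 counts per library and was called light (-1.14, edgeR adjusted p = 0.0281). ANXA8 had 0 counts in all libraries and ANXA8L1 had 1 in all.

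The other comparison was between genotypes, separately for heavy and for light polysomes. With 1 library on each side it has no replicate check, so no p-value was computed, and intervals are 95% counting intervals. The largest difference among members was that of ANXA10, an annexin known from gastric epithelium and from serrated lesions of the colon, which was picked for it. It had 0 counts in labelled knockout heavy against 113 in wild type heavy polysomes, and 0 in labelled knockout light against 115 in wild type light polysomes. Taking 3 counts per library as the limit of detection, ANXA10 was at least 36.0-fold lower in the labelled knockout in heavy polysomes and at least 32.0-fold lower in light ones. Fewer cells with this mRNA and less of it per cell cannot be told apart. Of all rows, 942 had 0 counts in both libraries labelled knockout and a count in the wild type. Of these, ANXA10, picked for this absence, was the only 1 with at least 50 counts in both wild type libraries. In the other direction, 1 row had 0 counts in both wild type libraries and at least 50 in both libraries labelled knockout.

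The rows nearest to ANXA10 in their pattern, by Euclidean distance of log2(CPM + 0.5) over the 4 libraries among rows with 0 counts in the labelled knockout, had far fewer counts. They were ZNF91 (17 counts in the heavy and 16 in the light library of the wild type), ADAM28 (5 and 16), KLK11 (9 and 9), CD52 (6 and 10) and MKX-AS1 (0 and 23). In GRCh38 ANXA10 is a plus-strand gene of chromosome 4 (168092537 to 168187736), and neighbouring genes had counts in all 4 libraries. DDX60, the next protein-coding gene after it, had 101 counts in labelled knockout heavy and 141 in wild type heavy polysomes, and 85 and 100 in light ones. DDX60L had 205 and 194 counts in heavy and 253 and 288 in light polysomes. SPOCK3, the next before ANXA10, had 36 and 72 counts in heavy and 17 and 31 in light polysomes. Farther out, TLL1 had 15 and 22 counts in heavy and 11 and 29 in light polysomes. CPE and PALLD had log2 ratios (labelled knockout over wild type) of -0.61 each in heavy polysomes, and of -0.10 and -0.15 in light ones.

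Of the 8 other members with counts, 0 differed 2-fold in heavy polysomes, where 3.12% of genes were that much higher and 2.37% that much lower. ANXA10 was past 2-fold lower in both fractions, but it was picked for this and is not counted here. Among these 8 members, 0 were past 2-fold lower in both fractions, where 1.20% of 10418 genes were. Past 2-fold higher in both were 0 as well, against 1.17% of genes. In light polysomes ANXA2 and ANXA3 were more than 2-fold higher in the labelled knockout, 2 of these 8 members, against 4.01% of all genes. That much lower there were 0 of these 8, against 2.49% of all genes. ANXA3 had the highest value of the family in heavy polysomes. Its log2 ratio (labelled knockout over wild type) stood at 0.68 in heavy (0.64 to 0.73) and 1.26 in light polysomes (1.21 to 1.31). That of ANXA2 was 0.38 in heavy (0.36 to 0.40) and 1.27 in light polysomes (1.24 to 1.31). With the pseudogene rows added it was 0.41 and 1.24. The median log2 ratio of all genes was -0.03 in heavy and 0.03 in light polysomes.

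ANXA5 also had positive ratios in both fractions, 0.24 in heavy (0.20 to 0.27) and 0.93 in light polysomes (0.87 to 0.99). ANXA1 was nearly level in heavy polysomes, at -0.04 (-0.06 to -0.02) with TMM and 0.01 with library totals, and stood at 0.93 in light polysomes (0.90 to 0.97). ANXA11 had 0.02 in heavy polysomes (-0.02 to 0.06), with the sign turned under DESeq2 size factors, and 0.31 in light ones (0.26 to 0.36). In light polysomes all 8 members with counts in both genotypes therefore had positive values, with each scaling used. The median of all genes there was 0.03 with TMM, and the share of all genes above 0 was not counted. ANXA9, which is not among the members, stood at -0.05 in light polysomes (-0.52 to 0.43).

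ANXA4, ANXA6 and ANXA7 had opposite signs in the fractions. ANXA4 stood at -0.46 in heavy (-0.53 to -0.38) and 0.44 in light polysomes (0.33 to 0.54). ANXA6 stood at -0.15 in heavy (-0.21 to -0.09) and 0.23 in light polysomes (0.10 to 0.36). ANXA7 stood at -0.15 in heavy (-0.21 to -0.08) and 0.29 in light polysomes (0.20 to 0.39). All of these differences were below 2-fold.

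**Figure D4:**
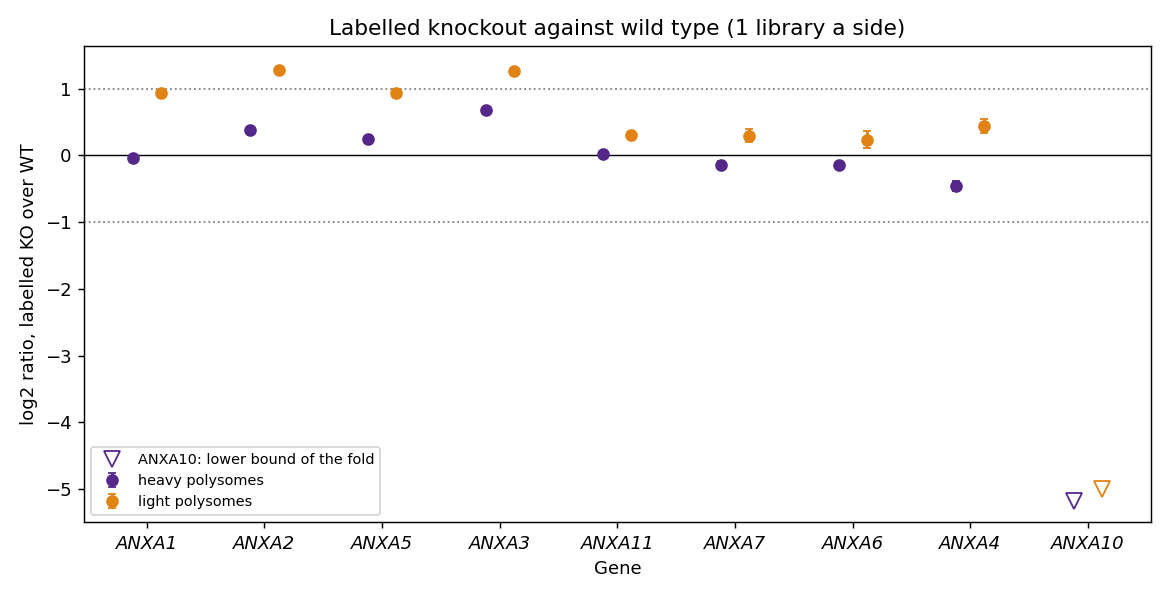
Log2 ratio of the labelled knockout to the wild type for 9 annexins in heavy and in light polysomes, 1 library a side, with 95% counting intervals and dotted lines at 2-fold. The 8 members other than ANXA10 lie higher in light than in heavy polysomes. The open triangles give the smallest fold that a floor of 3 counts allows for ANXA10.

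The heavy to light ratio of 8 annexin members was lower in the labelled knockout than in the wild type, with 1 library per group. The 10 members together made up 0.672% of counts in labelled knockout heavy and 0.576% in wild type heavy polysomes. Their share was 0.326% in labelled knockout light and 0.184% in wild type light polysomes. The log2 heavy to light ratio, subtracted as labelled knockout minus wild type, was below 0 for all 8 members with at least 50 counts in each library. It ran from -0.98 for ANXA1 (interval -1.02 to -0.93) over -0.89 for ANXA2, -0.89 for ANXA4, -0.69 for ANXA5, -0.58 for ANXA3, -0.44 for ANXA7 and -0.38 for ANXA6 to -0.29 for ANXA11 (-0.35 to -0.22). Of these 8, 0 reached a 2-fold difference, where 2.37% of 10834 genes did in this direction and 0.905% in the other. With DESeq2 size factors ANXA1 did, at -1.05. The balance over all genes depended on the scaling, with 257 genes past 2-fold toward light and 98 toward heavy polysomes with TMM, and 107 and 265 with library totals, while the 8 annexins stayed below 0 under each scaling. The same difference was below 0 for 5797 of 10834 genes, with a median of -0.05. For ANXA9, which is not among the members, it was above 0, at 0.31 (-0.29 to 0.92).

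The difference was lower for other genes of heavy polysomes too. Among 2030 genes with a mean log2 heavy to light ratio over 1 and up to 2, its median was -0.47 and its quartiles -0.73 and -0.20. Of the 5 annexins in that class, ANXA1, ANXA2 and ANXA4 lay below the lower quartile, and ANXA5 and ANXA7 lay within the quartiles. ANXA6, in the class over 2 and up to 3, lay above the upper quartile of -0.46 of its 396 genes. ANXA3 and ANXA11 belonged to 3208 genes with a mean ratio over 0 and up to 1, where the median was -0.12 and the quartiles -0.42 and 0.20. ANXA3 lay below the lower quartile there, and ANXA11 between the lower quartile and the median.

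Since DICER1 makes microRNAs, the 3′ UTRs of the members were searched on the transcript strand for matches to the seeds, bases 2 to 8, of 7 microRNAs. A match was the complement of the seed, or of its first 6 bases followed by A. The microRNAs were let-7a, miR-17, miR-21, miR-200b, miR-16, miR-34a and miR-196a, the last known as a repressor of ANXA1 in human cancer cells. Those matched in ANXA1 and ANXA5, and miR-16 with the longest match in ANXA11, are shown with the seed in capitals (mature sequences from RefSeq, GRCh38.p14).
hsa-miR-21-5p: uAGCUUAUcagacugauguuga
hsa-miR-196a-5p: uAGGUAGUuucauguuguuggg
hsa-miR-34a-5p: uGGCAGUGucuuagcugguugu
hsa-miR-16-5p: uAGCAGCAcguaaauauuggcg

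The matching sites follow on the transcript strand, with the match in capitals. They lie in the 3′ UTR of ANXA1 at chr9:73170152-73170181 and chr9:73170196-73170225 (plus strand), of ANXA5 at chr4:121668410-121668439 and of ANXA11 at chr10:80155613-80155642 (both minus strand), all in GRCh38.
ANXA1, miR-21: atatattttcatcctATAAGCTtaaatagg
ANXA1, miR-196a: aggattacagtgtagCTACCTAcatgctga
ANXA5, miR-34a: gtgcctgcaccacccCACTGCCttccttca
ANXA11, miR-16: tccctcacagcctctTGCTGCTaaaataga

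ANXA1 held 1 match each for miR-21 (ATAAGCT) and miR-196a (CTACCTA). Of 823 3′ UTRs within 20% of its length, 2.07% held a match for miR-21 and 2.07% for miR-196a. ANXA5 held 1 for miR-34a (CACTGCC), as did 11.3% of 1137 3′ UTRs of like length. ANXA11, with its long 3′ UTR, held matches for miR-16 (TGCTGCT, also found in 57.8% of 1048 3′ UTRs of like length), miR-17 and miR-34a. ANXA4 held 1 for miR-21, as did 11.6% of 1711 3′ UTRs of like length. ANXA7 held 1 each for miR-200b and miR-196a, found in 15.3% and 6.02% of 1462 such 3′ UTRs. ANXA2, ANXA3, ANXA6, ANXA10 and ANXA13 held 0 matches for these 7 microRNAs, and no member held one for let-7a. Over 12521 3′ UTRs of any length, 17.7% held a match for let-7a and 11.8 to 31.3% one for each of the others. Most 3′ UTRs thus lack a match for any 1 of them.

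Members with and without a match overlapped in their genotype values. ANXA2 and ANXA3, without a match, had the highest genotype ratios of the family in light polysomes on the log2 scale, 1.27 and 1.26. ANXA6, also without a match, had the lowest of the 8, 0.23. ANXA1 and ANXA5, with matches, lay at 0.93 each, and ANXA4, ANXA11 and ANXA7 at 0.44, 0.31 and 0.29. A seed match describes the sequence and is not evidence of a bound site. The part of microRNAs in these ratios was not tested.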

How the data were processed

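Polysomal RNA of HCT116 cells was sequenced in 4 libraries, 1 per group. The deposited table holds raw counts per gene symbol. CASAVA, STAR, HTSeq and hg19 are named, per the submitters' processing notes; no version, annotation or strandedness is given in the sources used here.

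Heavy and light polysomes were compared with edgeR 4.0.16 in R 4.3.3 (TMM, filterByExpr, quasi-likelihood test, called at an adjusted p under 0.05, 1 residual degree of freedom). The block was the genotype, taken as the gradient. Nothing in the labels names separate cultures, so p-values measure the spread between these libraries, which edgeR pools over genes. On simulated counts for 13574 genes in this comparison, 38 of 50 genes raised 2-fold were called. The simulation gave every gene the same dispersion, both gradients the same effect, and changed few genes. In the data 59.3% of genes were called and the gradients differed, so the simulation does not give the power of the real fit. Genotypes were compared as log2 ratios of TMM-scaled CPM (prior count 2), for genes whose higher library in every pair reached 100 counts, and heavy to light ratios were subtracted for genes reaching 50 counts in all libraries. Counting intervals (95%) and the floor of 3 counts (0.136 to 0.166 CPM) cover counting error only, since reads are not independent molecules.

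Gene models came from GENCODE release 44 (GRCh38), matched for 24167 of 26364 symbols, 1369 of them through RefSeq synonyms; counts stayed those made on hg19. An antisense gene covers 3.67% of the exons of ANXA7; exons of the other members overlap 0 genes. The main transcript is the canonical one. All members were named, with the 5 genes most like ANXA10, partners with at least 50 counts in each library, called copines, and the 2 highest and 2 lowest calls among repair and phosphatidylserine exposure genes. Members and lists were chosen with earlier results of these data known. Alternatives were DESeq2 1.42.0, other scalings, filters, count minima and prior counts, no block, and single gradients.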

Additional observations from a re-analysis of the deposited data

Results flagged for a closer look

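Several annexins had opposite signs in the fractions when the labelled knockout was set against the wild type, with both counting intervals off 0. Each contrast has 1 library a side, so the difference between fractions was not tested. The log2 ratio of ANXA4 was -0.46 in heavy and 0.44 in light polysomes. That of ANXA6 was -0.15 in heavy and 0.23 in light polysomes, and that of ANXA7 was -0.15 in heavy and 0.29 in light polysomes. ANXA1 stood at -0.04 in heavy polysomes, a sign that turned with library totals, and at 0.93 in light polysomes.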

How the results depend on the processing

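The calls of ANXA1, ANXA2, ANXA4, ANXA5, ANXA6 and ANXA7 toward heavy polysomes held under each alternative with a test. The annexin count was 6 with library totals, with DESeq2 size factors in edgeR and with no replicate block, where ANXA11 was lost, and 7 with DESeq2, with no filter and without ribosomal RNA rows. With no replicate block 2183 genes were called toward light polysomes against 3977. Library totals moved the median log2 heavy to light ratio of all genes by over 0.1, and ANXA10 turned to -0.11. Single gradients gave ratios of 1.40 to 2.38 for ANXA1, 1.53 to 2.43 for ANXA2, 1.33 to 2.02 for ANXA5 and 0.68 to 1.57 for ANXA4. Between genotypes in heavy polysomes, ANXA1 turned to 0.014 with library totals and ANXA11 to -0.0099 with DESeq2 size factors; the cause was not tested. For the difference of the ratios, DESeq2 size factors gave 52 genes toward heavy and 390 toward light polysomes, with 1 annexin toward light, ANXA1 at -1.05. Library totals gave 265 and 107. A minimum of 20 counts gave 177 toward heavy, and 100 counts gave 61. With a minimum of 20 counts in the higher library, 211 genes were higher and 215 lower in both pairs, 536 higher and 423 lower in the heavy pair, and 455 lower in the light pair; the annexin counts stayed as given. With 1 library per group, depth limits ANXA10 and ANXA13 to floors, and no setting replaces a replicate of the genotype.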

Other observations

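Copines, another family of calcium-dependent phospholipid-binding proteins, were found in both fractions. Of 6 tested members, 3 were called heavy and 1 light, where 30.0% and 29.3% of all genes were, with a median log2 heavy to light ratio of 0.73. CPNE8 stood at 1.57, CPNE3 at 1.49 and CPNE1 at 1.23, while CPNE2 was called light at -0.69, all by edgeR's test. Of the 5 with enough counts, 0 differed 2-fold between the genotypes, where 3.12% of genes were higher and 2.37% lower in heavy polysomes, and 4.01% higher and 2.49% lower in light ones.

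Genes that move phosphatidylserine, the lipid bound by ANXA5, between membrane leaflets had a lower median. Of 10 tested members, 1 was called heavy and 2 light, against the same 30.0% and 29.3% of all genes, with a median of -0.15. The call toward heavy was PLSCR1, a scramblase induced by interferon, at 0.89, and those toward light were PLSCR4 at -0.86 and the flippase ATP11B at -0.72. Of the 9 with enough counts PLSCR1 was the only one past 2-fold between the genotypes, lower in heavy polysomes as were 2.37% of genes: it had 1199 counts in labelled knockout heavy and 2802 in wild type heavy polysomes (log2 ratio -1.16), and 851 and 1359 in light ones (-0.41). Of 8 annexin partners with enough counts, 1 was past 2-fold higher and 1 lower in heavy polysomes, where 3.12% and 2.37% of genes were. In light polysomes 0 were past 2-fold. The median log2 ratio of the 8 was -0.18 in heavy and 0.27 in light polysomes. The higher one was the scaffold AHNAK. It had 6429 counts in labelled knockout heavy and 2178 in wild type heavy polysomes (1.62), and 2097 and 1352 in light ones (0.89). The lower one was S100A4, with 994 and 2353 counts in heavy polysomes (-1.18) and 2245 and 4346 in light ones (-0.69).

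The difference of the heavy to light ratio between the genotypes (labelled knockout minus wild type) was above 0 for 7 of 9 measured genes of phosphatidylserine exposure, with a median of 0.34. Over all genes 5797 of 10834 were below 0. The value moved with the heavy to light ratio itself: its median was 0.21 among 3671 genes with a mean ratio over -1 and up to 0, and -0.47 among 2030 genes over 1 and up to 2. No test of this contrast was possible with 1 library per group.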
